A study of Mus musculus with 2 samples.

Results

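Glutathione, thioredoxin and the superoxide dismutases are the main enzymatic defence of a cell against peroxides and superoxide, and the recycling of glutathione and thioredoxin draws on NADPH. The 10 genes described here were taken by symbol: Gclc, Gclm, Gsr, Gpx1, Gpx4, Txn1, Txnrd1, Prdx1, Sod1 and Sod2. Each symbol matched 1 of the 32285 genes measured. Together they held 223865 of 86745047 UMIs at day +7 and 214981 of 83808218 at day +14.

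The study followed donor T cells after allogeneic hematopoietic cell transplantation (allo-HCT) in a mouse model of acute graft-versus-host disease (aGvHD), to learn how T cell metabolism is altered. In the fully allogeneic model, lethally irradiated, age-matched BALB/c recipients received T cell-depleted marrow and splenic T cells from wild-type C57BL/6 donors, and no treatment is stated for these libraries apart from PBS in their names. The labels call the donor T cells purified and naive, while the text on this experiment is mixed. Its figure legends do not call them naive, and only some of its passages give another cell number than the labels. Cells positive for CD45, TCRβ and the donor H2Kb, and negative for the recipient H2Kd, were sorted from recipient spleens, pooled and examined by scRNA-seq in 2 libraries, 1 from day +7 and 1 from day +14. The protocol text of both libraries speaks of a sort at day +7, and the day was taken from the sample titles.

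With 1 library of pooled cells per time point, a difference between the days cannot be told apart from a difference between the libraries or the animals in them, and no test was possible. Levels are CPM, a gene's UMIs summed over the cells of a gate per 1000000 UMIs of that gate. The 95% intervals are exact Poisson intervals for a level and exact conditional binomial intervals for a ratio, and they cover counting error only. A gene was counted as higher or lower where the log2 ratio of its levels passed 0.5 in either direction, among genes whose mean over both sums compared reached 10 CPM. Levels were compared for 1 gene at a time, between gates or days and not between genes.

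After barcodes with few or very many genes or a high mitochondrial share were left out, 7179 cells remained at day +7 and 7794 at day +14, with median depths of 9210 and 8144 UMIs. The libraries shared 17 barcodes among the kept cells. Cells were gated on transcripts, with T cells holding at least 3 UMIs of 6 T cell receptor and CD3 genes, and cycling cells at least 0.05% of UMIs from 12 mitotic and replication genes. Non-cycling CD8 T cells numbered 2262 and 2196 at days +7 and +14, cycling CD8 T cells 3501 and 3733, conventional CD4 T cells 454 and 693, and T cells with a Foxp3 UMI 195 and 90. Of the CD8 T cells, 299 and 304 lay within 20% of the cut on cycling genes.

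Some gates stood apart from their names or from the sort. The Foxp3+ gate was high in Ikzf2 (194 and 534 CPM) and Il2ra (171 and 111 CPM), as regulatory T cells are, yet 141 of its 195 cells at day +7 and 35 of its 90 cells at day +14 held Cd8a or Cd8b1 UMIs and no Cd4 UMI, so it is called here by its rule. The TCRβ+ sort should have removed neutrophils and erythroid cells, but 42 and 77 droplets passed the neutrophil gate and 119 and 15 the erythroid gate. The genes that each gate was drawn on are raised in it by that rule. The 10 neutrophil genes stood at 262689 and 262029 CPM in the neutrophil gate. The 6 erythroid genes stood at 2119.9 and 3157 CPM in the erythroid gate. Summed over the 6 T cell genes, the neutrophil gate held 929 and 2270.1 CPM and the erythroid gate 1593 and 1043 CPM, against 6921 and 9409 CPM in non-cycling CD8 T cells. Droplets that caught 2 cells were not removed, since Scrublet marked none.

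As background, glutathione is made in a first, rate-limiting step by glutamate-cysteine ligase, whose catalytic subunit is Gclc and whose modifier subunit is Gclm. Glutathione peroxidases oxidise it while reducing peroxides, and glutathione reductase (Gsr) returns it to the reduced form with NADPH. In the parallel system thioredoxin (Txn1) reduces peroxiredoxins such as Prdx1 and is itself reduced by thioredoxin reductase (Txnrd1), again with NADPH, while the cytosolic and mitochondrial superoxide dismutases Sod1 and Sod2 turn superoxide into hydrogen peroxide. Activated T cells need glutathione to grow and divide, and the transcription factor NRF2, which binds the antioxidant response element, is a known activator of many of these genes.

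Because several of these genes are known NRF2 targets, the 250 bases before each annotated start were searched for the core of the antioxidant response element, TGACNNNGC, on both strands. RefSeq windows (GRCm38.p6, the build called mm10) were at hand for 8 of the 10 genes. Of the 13 windows of these genes 4 held 1 match each, 1 window each of Gclm, Txnrd1, Prdx1 and Sod1. Among the 32851 windows of all genes, 10.2% held at least 1. Counted by gene it was 4 of 8, against 11.5% of 27025 genes. A second search of the same windows, for the GATA motif AGATAA, found it in 0 of the 8 genes, against 11.4% of 27025. A match in these letters is a description and not a bound site. The windows with a match are printed 5′ to 3′ on the gene's strand, in lower case, up to the first annotated exon, with the match in capitals; each is on the plus strand of the genome and the match reads on the opposite strand. Gclm lies at chr3:122245307-122245556, the second of the 3 Txnrd1 windows at chr10:82858956-82859178 inside the span of the gene, Prdx1 at chr4:116685349-116685543 and Sod1 at chr16:90220512-90220753.
Gclm: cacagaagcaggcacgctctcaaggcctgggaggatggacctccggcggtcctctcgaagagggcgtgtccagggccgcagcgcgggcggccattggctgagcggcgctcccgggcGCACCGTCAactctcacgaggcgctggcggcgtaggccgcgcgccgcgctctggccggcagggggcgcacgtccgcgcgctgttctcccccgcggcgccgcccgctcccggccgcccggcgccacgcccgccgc
Txnrd1: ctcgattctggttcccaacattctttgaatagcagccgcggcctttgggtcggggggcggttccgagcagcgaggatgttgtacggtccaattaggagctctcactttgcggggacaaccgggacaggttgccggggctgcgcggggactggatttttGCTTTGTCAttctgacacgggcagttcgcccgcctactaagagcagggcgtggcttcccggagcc
Prdx1: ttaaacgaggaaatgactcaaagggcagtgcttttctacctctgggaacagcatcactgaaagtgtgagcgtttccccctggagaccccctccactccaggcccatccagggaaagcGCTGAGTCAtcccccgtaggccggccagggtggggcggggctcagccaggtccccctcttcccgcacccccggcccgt
Sod1: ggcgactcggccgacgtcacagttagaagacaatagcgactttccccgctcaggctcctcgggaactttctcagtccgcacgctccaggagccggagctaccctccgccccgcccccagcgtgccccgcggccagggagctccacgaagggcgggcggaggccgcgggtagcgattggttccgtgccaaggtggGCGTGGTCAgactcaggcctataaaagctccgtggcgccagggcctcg

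Within T cells the 10 genes differed little between the days. In non-cycling CD8 T cells none of the 10 was higher or lower by the threshold, where 22.6% of the 6720 genes measured were higher at day +14 and 4.27% lower. In cycling CD8 T cells 1 of 10, Gclc, was higher and none was lower, against 13.0% and 3.41% of 6795 genes. In CD4 T cells none passed in either direction, against 20.0% higher and 3.77% lower of 6982 genes. In the Foxp3+ gate Gclc was higher and none was lower, against 25.0% and 5.50% of 6998 genes. Gclc was under 10 CPM there at day +7 (8.41 CPM) and was counted through its day +14 level (19.8 CPM).

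The level of the median gene was itself above day +7 at day +14, by a log2 ratio of 0.20 in non-cycling CD8, 0.17 in cycling CD8, 0.17 in CD4 and 0.19 in Foxp3+ cells. The median of the 10 genes was 0.03, 0.02, 0.14 and 0.11 in the same order, below the median gene in each. Relative to the median gene, no member passed 0.5 in the CD8 or CD4 gates. Gclc did in the Foxp3+ gate at 1.04, again counted there through its day +14 level. On that scale Gclc was above 0 in all 4 T cell gates, and Gpx1, Txnrd1, Prdx1 and Sod1 were below 0 in all 4. The sign of the smaller ratios thus depends on the scale, and those given next are on the scale of total UMIs unless stated.

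**Figure D1:**
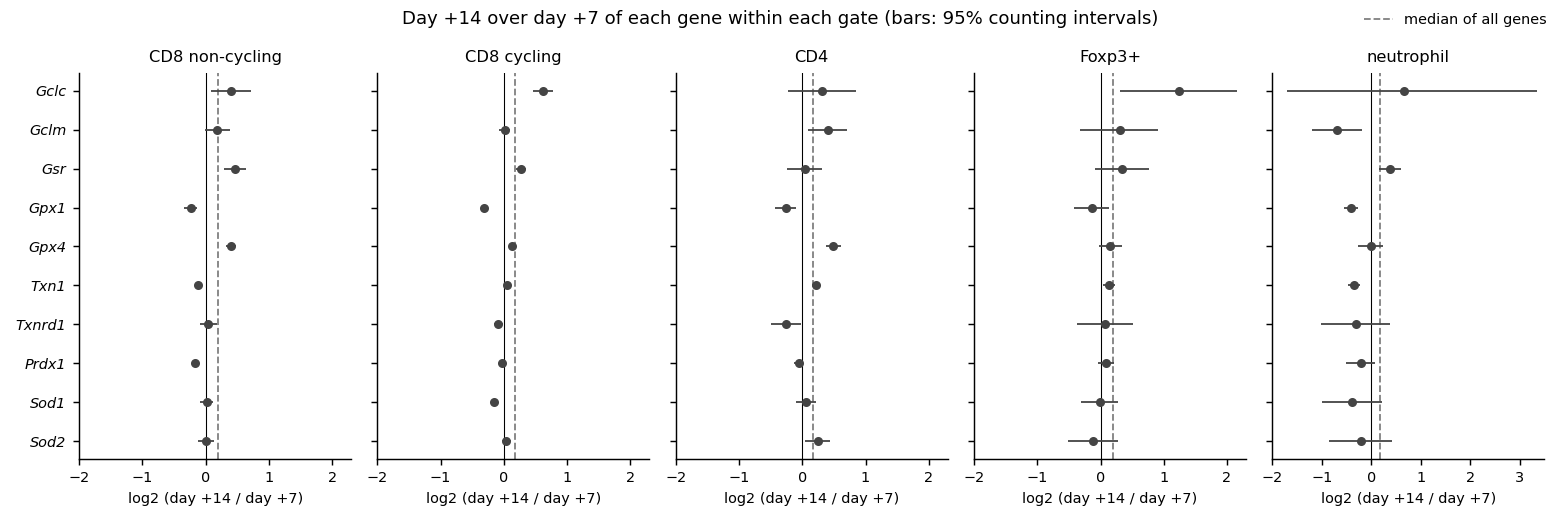
Log2 ratio of day +14 over day +7 for the 10 genes in 5 gates, with 95% counting intervals as bars; the solid line is 0 and the dashed line the median of all genes. In the 4 T cell gates all points except Gclc in cycling CD8 and Foxp3+ cells lie between -0.31 and 0.49, and Gpx1 lies left of 0 in all 5 gates.

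Gclc (ENSMUSG00000032350, chr9:77754535-77794485, plus strand), the catalytic subunit of glutamate-cysteine ligase, had the highest ratio of the 10 genes in cycling CD8 T cells. Positions are from GENCODE M21 on GRCm38. In cycling CD8 T cells its level was 10.7 CPM on day +7 against 16.5 CPM on day +14, a log2 ratio of 0.62 (95% interval 0.47 to 0.78) that 93.2% of genes lay below. In non-cycling CD8 T cells it was 10.2 CPM on day +7 against 13.4 CPM on day +14, with a log2 ratio of 0.40 (95% interval 0.09 to 0.71). The ratio was above 0 in all 4 T cell gates, although the interval in CD4 T cells (11.4 and 14.0 CPM) included 0. In the Foxp3+ gate 23 and 21 UMIs gave 8.41 and 19.8 CPM and a log2 ratio of 1.23 (95% interval 0.31 to 2.15), so the size there is poorly fixed.

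Gclm (ENSMUSG00000028124, chr3:122245557-122270732, plus strand), the modifier subunit that raises the activity of the catalytic one, did not follow it in cycling CD8 T cells, where it was at 40.6 CPM on day +7 against 40.9 CPM on day +14 and the log2 ratio was 0.01 (95% interval -0.08 to 0.10). In non-cycling CD8 T cells the levels were 26.4 and 29.9 CPM at days +7 and +14, and in the Foxp3+ gate 26.7 and 33.0 CPM, with intervals of the ratio that included 0 in both. CD4 T cells had 32.4 and 42.7 CPM, a log2 ratio of 0.40 (95% interval 0.09 to 0.71). Against the median gene, Gclm lay at -0.02 in non-cycling and -0.16 in cycling CD8 T cells.

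Gsr (ENSMUSG00000031584, chr8:33652523-33698163, plus strand), which regenerates reduced glutathione with NADPH, had a ratio above 0 in both CD8 gates and inside the threshold. Its level was 33.2 CPM on day +7 against 45.8 CPM on day +14 in non-cycling CD8 T cells, a log2 ratio of 0.47 (95% interval 0.30 to 0.63), and 49.8 and 60.3 CPM in cycling CD8 T cells, a log2 ratio of 0.27 (95% interval 0.20 to 0.35). In CD4 T cells the levels, 44.8 and 46.1 CPM, lay within each other's intervals. The Foxp3+ gate had 52.7 and 66.9 CPM, with an interval of the log2 ratio from -0.09 to 0.76.

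The peroxidases lay on opposite sides of day +7. Gpx1 (ENSMUSG00000063856, chr9:108338903-108340343, plus strand), the selenium-dependent peroxidase of cytosol and mitochondria that removes hydrogen peroxide, lay below its day +7 level in all 4 T cell gates, inside the threshold, at 111 and 94.1 CPM in non-cycling CD8, 135 and 109 CPM in cycling CD8, 137 and 114 CPM in CD4 and 157 and 142 CPM in Foxp3+ cells at days +7 and +14. The log2 ratio was -0.24 (95% interval -0.34 to -0.13) in non-cycling and -0.31 (95% interval -0.36 to -0.26) in cycling CD8 T cells, where only 6.50% of genes lay lower. The interval included 0 in the Foxp3+ gate.

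Gpx4 (ENSMUSG00000075706, chr10:80047166-80056439, plus strand), the peroxidase that reduces lipid peroxides and protects cells from ferroptosis, lay above its day +7 level in each T cell gate, inside the threshold. Its levels were 166 and 219.7 CPM in non-cycling CD8 T cells, a log2 ratio of 0.40 (95% interval 0.33 to 0.48). In CD4 T cells they were 215.5 and 303 CPM, with 0.49 (95% interval 0.38 to 0.61), the highest log2 ratio of the 10 genes in that gate. Between the days the CD4 gate also differed in the beta-globin gene Hbb-bs (0.214 and 119 CPM) and in median depth (8293 and 5325 UMIs). Their part in the ratios of that gate was not tested. In cycling CD8 T cells they were 248 and 271 CPM, a log2 ratio of 0.13 (95% interval 0.09 to 0.16), which lay -0.05 from the median gene. The Foxp3+ gate had 297 and 331 CPM, with an interval that included 0. A processed copy of this gene, Gpx4-ps2, is annotated, and how reads shared between such copies were assigned is not given in the sources used here.

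Txn1 (ENSMUSG00000028367, chr4:57943373-57956411, minus strand), thioredoxin itself, differed in direction between the gates. It lay below its day +7 level in non-cycling CD8 T cells (997 and 916 CPM, log2 ratio -0.12, 95% interval -0.16 to -0.09). In CD4 T cells it lay above (1029 and 1195 CPM, 0.22, 95% interval 0.16 to 0.27), and it lay above by less in cycling CD8 T cells (1217 and 1263.5 CPM, 0.05, 95% interval 0.04 to 0.07) and Foxp3+ cells (1113 and 1223 CPM, 0.14, 95% interval 0.04 to 0.23). Against the median gene it lay at -0.32 in non-cycling CD8, -0.12 in cycling CD8, 0.05 in CD4 and -0.06 in Foxp3+ cells. The counts behind these ratios were large, 16480 and 12427 UMIs in the non-cycling gate, so the intervals are narrow while the spread between animals is unknown.

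Prdx1 (ENSMUSG00000028691, chr4:116685544-116700822, plus strand), the cytosolic peroxiredoxin that thioredoxin reduces, was at 495 CPM on day +7 against 443 CPM on day +14 in non-cycling CD8 T cells, a log2 ratio of -0.16 (95% interval -0.21 to -0.11). In cycling CD8 T cells it was at 668 and 655 CPM, in CD4 T cells at 559 and 537 CPM and in the Foxp3+ gate at 622 and 659 CPM, with log2 ratios between -0.06 and 0.08. Thioredoxin and its client peroxiredoxin were thus both below their day +7 levels in non-cycling CD8 T cells. Txnrd1 (ENSMUSG00000020250, chr10:82833951-82897712, plus strand), the reductase that feeds NADPH electrons to thioredoxin, was at 58.4 and 60.1 CPM in non-cycling CD8, 71.8 and 67.6 CPM in cycling CD8, 66.0 and 55.2 CPM in CD4 and 55.6 and 58.4 CPM in Foxp3+ cells. Its lowest log2 ratio was -0.26 (95% interval -0.50 to -0.02), in CD4 T cells.

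Of the superoxide dismutases, the cytosolic Sod1 (ENSMUSG00000022982, chr16:90220754-90226329, plus strand) was at 107 CPM on day +7 against 109 CPM on day +14 in non-cycling CD8 T cells and at 138 and 125 CPM in cycling CD8 T cells, with log2 ratios of 0.02 (95% interval -0.08 to 0.12) and -0.15 (95% interval -0.20 to -0.10). CD4 T cells had 137 and 143 CPM and Foxp3+ cells 134 and 133 CPM, and both intervals of the ratio included 0. The mitochondrial Sod2 (ENSMUSG00000006818, chr17:13006846-13040063, plus strand) was at 67.0 and 67.4 CPM in non-cycling and 71.3 and 73.3 CPM in cycling CD8 T cells, the closest pair of levels between the days among the 10 genes in the non-cycling gate. In CD4 T cells Sod2 was at 78.7 and 93.1 CPM, a log2 ratio of 0.24 (95% interval 0.04 to 0.44), and in Foxp3+ cells at 75.7 and 69.7 CPM.

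**Figure D2:**
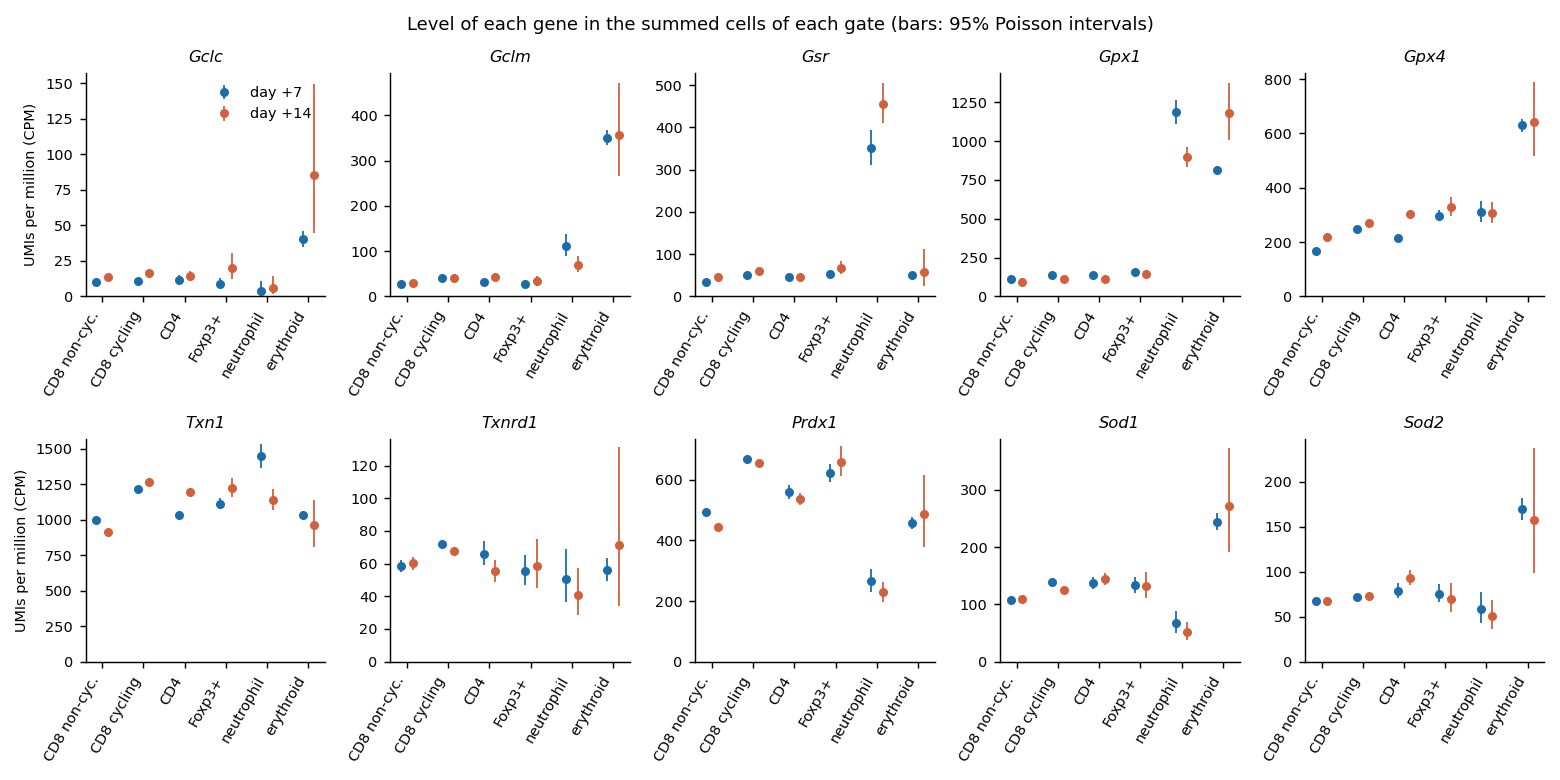
Level of each gene (y axis, CPM from 0) in the summed cells of 6 gates (x axis) at day +7 in blue and day +14 in orange, with 95% Poisson intervals as bars. The erythroid gate stands highest for Gclc, Gclm, Gpx4, Sod1 and Sod2 at both days, the neutrophil gate for Gsr, and both lie above every T cell gate for Gpx1. At day +14 the erythroid gate holds 15 cells, and its Sod2 interval overlaps that of CD4 T cells.

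Over all kept cells the picture between the days differed from that within T cells. Of the 10 genes 1, Gpx1, was lower and none was higher, against 3.27% lower and 14.1% higher of 6919 genes. Gpx1 stood at 181 CPM on day +7 against 122 CPM on day +14, a log2 ratio of -0.57 (95% interval -0.61 to -0.54). Gclm was at 54.4 and 40.4 CPM, with -0.43 (95% interval -0.49 to -0.36). Among all T cells together, the log2 ratio was -0.27 (95% interval -0.31 to -0.23) for Gpx1 (131 and 108 CPM) and 0.11 (95% interval 0.04 to 0.18) for Gclm (36.4 and 39.3 CPM). The ratio of Gclm was thus below 0 over all cells and above 0 among T cells, inside the threshold in both, and among T cells it lay -0.08 from the median gene. Gclc, at 10.5 and 15.8 CPM among all T cells, had a log2 ratio of 0.60 (95% interval 0.47 to 0.72) there, which is past 0.5.

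The erythroid gate moved with this difference, and its part in it was not tested. Its 119 cells at day +7 were deep (median 37915 UMIs) and held 5.34% of all UMIs, but 34.5% of the Gclm UMIs, 23.9% of those of Gpx1, 17.8% of Gclc and 13.3% of Gpx4. At day +14 its 15 cells held 1.48% of the Gclm UMIs and 1.62% of those of Gpx1. The neutrophil gate held 6.48% and 7.45% of the Gsr UMIs and 5.94% and 7.31% of those of Gpx1 at days +7 and +14, against 0.907% and 0.994% of all UMIs. T cells held between 61.8% (Gclm) and 94.1% (Prdx1) of the UMIs of each gene at day +7, and between 87.4% (Gpx1) and 98.4% (Prdx1) at day +14.

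**Figure D3:**
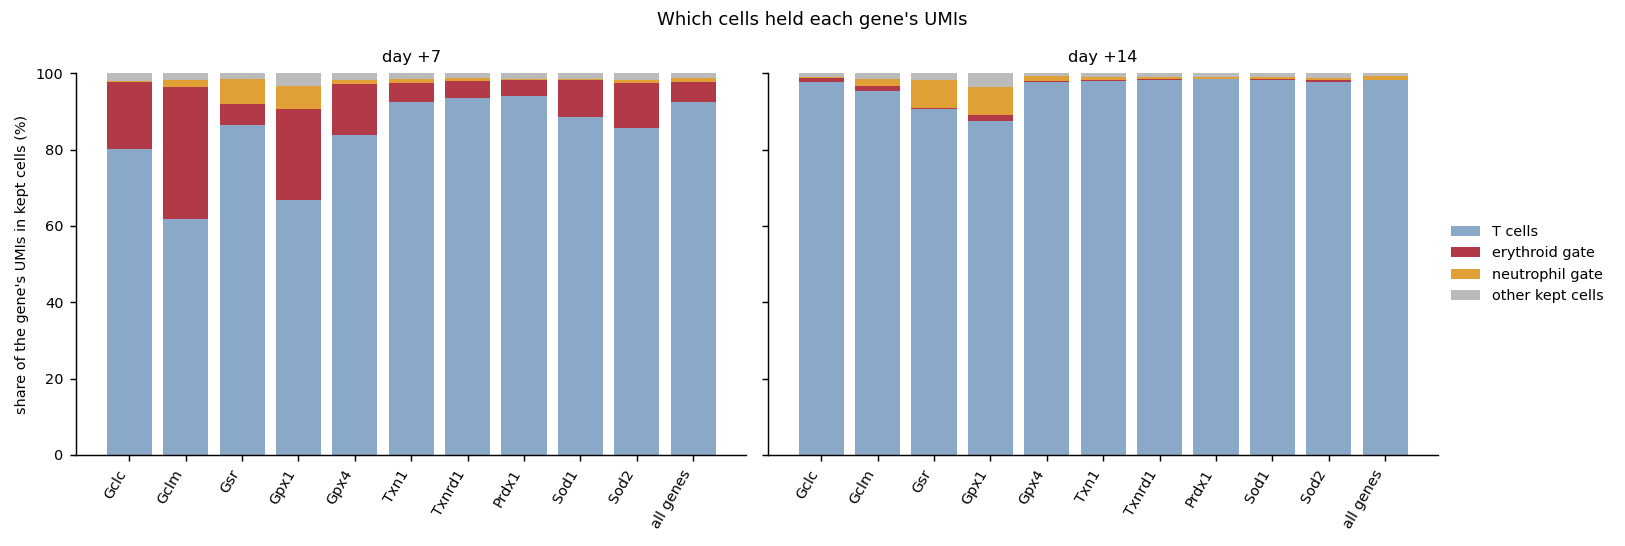
Share of each gene's UMIs in kept cells (y axis, percent) that lay in T cells, the erythroid gate, the neutrophil gate and other cells, at day +7 (left) and day +14 (right), with all genes as the last bar. The erythroid share of Gclm is 34.5% at day +7 and 1.48% at day +14, and the neutrophil share is largest for Gsr and Gpx1.

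The log2 ratio of cycling over non-cycling CD8 T cells was above 0 for all 10 genes at both days, with intervals that included 0 for Gclc and Sod2 at day +7. At day +7, 3 of 10 passed the threshold (Gclm, Gsr and Gpx4) and none was lower, against 17.9% higher and 9.75% lower of 6526 genes. At day +14, 1 of 10 passed (Prdx1) and none was lower, against 17.1% and 12.9% of 7078 genes. The median log2 ratio of the 10 was 0.33 at day +7 and 0.30 at day +14, with the median gene at 0.05 and 0.01. Summed over the 10 genes the level was 2071 CPM in non-cycling and 2649.7 CPM in cycling CD8 T cells at day +7, and 1998 and 2681 CPM at day +14. Most of each sum came from Txn1 (997 and 1217 CPM at day +7) and Prdx1 (495 and 668 CPM).

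The order of the genes in this comparison was not the same at both days. At day +7 the log2 ratio of cycling over non-cycling was 0.62 (95% interval 0.47 to 0.77) for Gclm, 0.59 (95% interval 0.45 to 0.72) for Gsr and 0.58 (95% interval 0.52 to 0.64) for Gpx4, while Prdx1 had 0.43 and Txn1 0.29. At day +14 Prdx1 had 0.56 (95% interval 0.52 to 0.60) and Txn1 0.46 (95% interval 0.44 to 0.49), while Gclm, Gsr and Gpx4 had 0.45, 0.39 and 0.30. Whether the 2 days differ in this was not tested. Sod2 (0.09 and 0.12) and, at day +7, Gclc (0.08) were the genes least different between the gates. Cycling cells were also deeper, at a median of 12493 and 11782 UMIs against 6711 and 5497.5, and the part of depth in these ratios was not tested beyond the thinned cells given with the alternatives.

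CD8 T cells were then summed in 5 bins of the share of UMIs that came from 12 cycling genes, from no such UMI to 0.5% or more, with bins chosen after the data had been seen. Prdx1 was at 442, 531, 665, 683 and 623.5 CPM from the lowest to the highest bin at day +7 and at 400.2, 467, 658, 666 and 612 CPM at day +14. Most of the difference thus lay between the bins on either side of the 0.05% cut, and the highest bin was below the one before it. Gpx1 had lower levels at both ends, with 106, 114, 146, 139 and 95.6 CPM at day +7 and 84.1, 99.9, 119, 113 and 76.3 CPM at day +14, so that the cells with most cycling transcripts lay below those with none, although the intervals of these 2 bins overlapped. Sod2 turned in the same way, with 64.4, 68.7, 74.8, 72.8 and 58.8 CPM and 65.4, 68.5, 76.9, 77.5 and 52.6 CPM. Sod1 did not turn at day +7, with 102, 111, 135, 136 and 154 CPM, and was level over the last 2 bins at day +14, with 109, 109, 120.1, 127 and 127 CPM. Gclm (24.3, 27.7, 34.7, 43.8 and 43.8 CPM at day +7) and Gpx4 (164, 167, 236, 256 and 249.7 CPM) also kept their level in the highest bin.

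**Figure D4:**
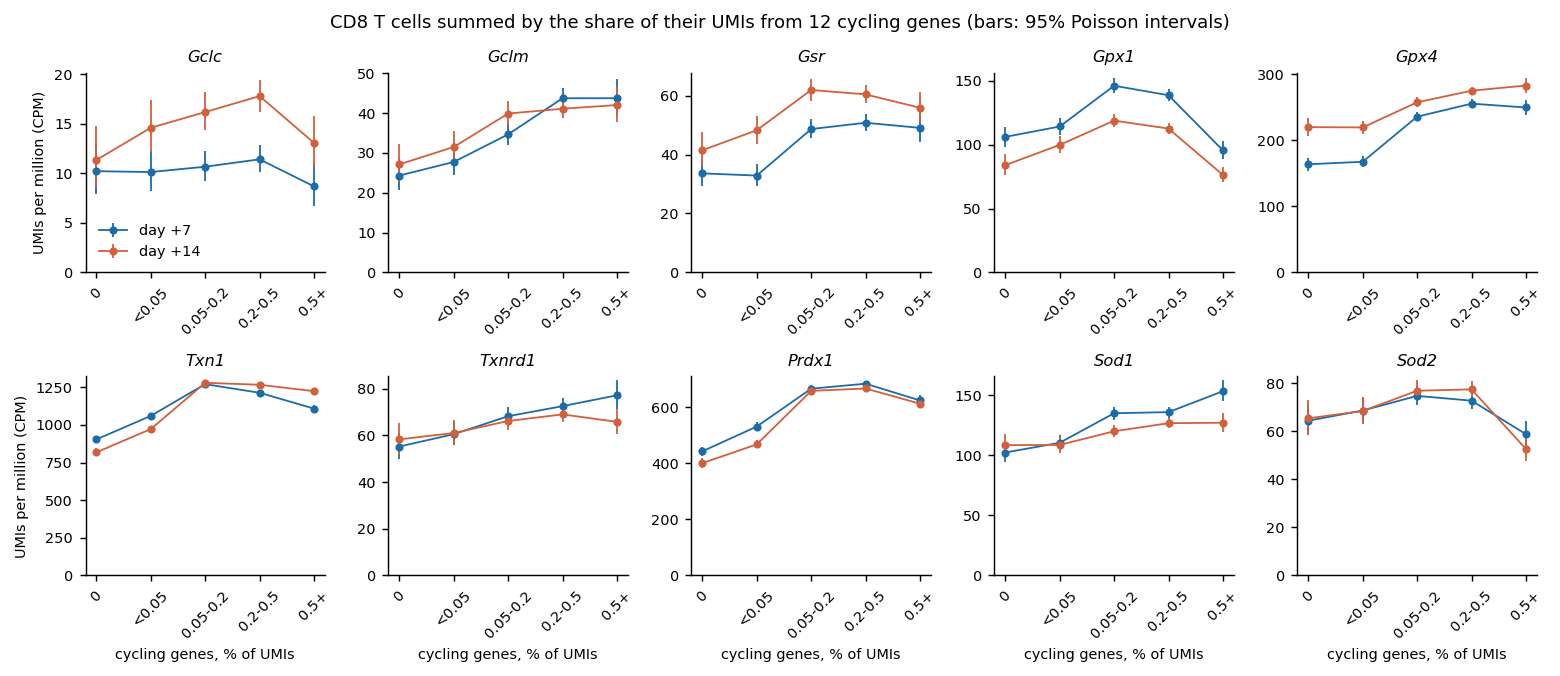
Level of each gene (y axis, CPM from 0) in CD8 T cells summed by the percentage of their UMIs from 12 cycling genes (x axis, 5 bins) at day +7 in blue and day +14 in orange, with 95% Poisson intervals as bars. Gpx1 and Sod2 are lower in the highest bin than in the bin before it at both days, and the day +14 line of Gpx1 lies below its day +7 line in all 5 bins.

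Part of the CD4 and Foxp3+ gates cycled, 44.9% and 35.4% of CD4 T cells and 57.9% and 56.7% of Foxp3+ cells at days +7 and +14. Neither CD8 gate thus matches the Foxp3+ gate in cycling share, and it is set here against cycling CD8 and CD4 T cells. Gpx4 was at 297 and 331 CPM in the Foxp3+ gate and 248 and 271 CPM in cycling CD8 T cells, and the intervals did not overlap at either day. Gpx1 also lay above in the Foxp3+ gate (157 and 142 CPM) against cycling CD8 T cells (135 and 109 CPM), again without overlap. Gclm lay below there at day +7 (26.7 against 40.6 CPM), and its intervals overlapped at day +14. Against CD4 T cells (215.5 and 303 CPM) the Gpx4 intervals of the Foxp3+ gate were apart at day +7 and overlapped at day +14. For Gpx1 (137 and 114 CPM in CD4 T cells) and Gclm (32.4 and 42.7 CPM) they overlapped at both days. The Foxp3+ gate held 151 CPM of neutrophil transcripts at day +7, against 26.6 CPM in cycling CD8 T cells, and their part in these values was not tested.

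CD4 T cells had more Sod2 (78.7 and 93.1 CPM) than non-cycling CD8 T cells (67.0 and 67.4 CPM), with intervals that overlapped at day +7 and were apart at day +14, and at day +14 also more than cycling CD8 T cells (73.3 CPM). In the order of levels across the T cell gates, Gclc, Txnrd1 and Sod2 neighbours overlapped in their intervals at day +7, whereas non-cycling CD8 T cells had the lowest Gsr, Gpx1, Gpx4, Prdx1 and Sod1 of the 4 T cell gates, apart from the next gate. At day +14 non-cycling CD8 T cells were again lowest for Gpx1, Gpx4, Txn1, Prdx1 and Sod1, apart from the next T cell gate for each. Txnrd1 lay between 55.6 and 71.8 CPM over the T cell gates at day +7 and between 55.2 and 67.6 CPM at day +14.

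The share of cells with a UMI depends on depth, so each cell was also reduced at random to 4000 UMIs, with 198 and 969 shallower cells set aside. Before thinning, 21.0% of non-cycling and 44.8% of cycling CD8 T cells at day +7 held a Gsr UMI. After it the shares were 13.0% (11.6 to 14.5) and 16.4% (15.2 to 17.7), with exact binomial intervals. Of the unthinned difference, then, only a part remained at equal depth. The thinned share of Gpx4 was 46.4% and 56.0% in non-cycling and 60.6% and 65.1% in cycling CD8 T cells at days +7 and +14. For Gpx1 it was 33.3% and 26.5% in non-cycling and 36.6% and 30.8% in cycling CD8 T cells. Txn1 was found in 95.2% or more of the day +7 cells of both CD8 gates, and Gclc in 3.77% to 6.66% of cells in the CD8 gates at the 2 days. These genes are used by every cell type, so no gate could serve as a background that should lack them.

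Neutrophils make superoxide with the NADPH oxidase as a weapon against microbes, and they lean on NADPH and glutathione to withstand it. In the neutrophil gate Gsr was at 351 CPM (95% interval 311 to 395) at day +7 and 456 CPM (95% interval 411 to 504) at day +14, against 33.2 and 45.8 CPM in non-cycling CD8 T cells. That was a fold of 10.6 and 9.95. Gpx1 was at 1184 and 895 CPM, 10.7 and 9.51 times the level in non-cycling CD8 T cells. Gclm was at 112 and 69.6 CPM, with log2 ratios of 2.08 (95% interval 1.74 to 2.42) and 1.22 (95% interval 0.79 to 1.62).

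Gpx4 (310.1 and 307 CPM) and Txn1 (1447 and 1139.9 CPM) were higher by the threshold at day +7 (log2 ratios 0.90 and 0.54) and inside it at day +14 (0.48 and 0.32). Prdx1 and Sod1 were lower. Prdx1 was at 266 and 229 CPM in the neutrophil gate and 495 and 443 CPM in non-cycling CD8 T cells, with log2 ratios of -0.90 (95% interval -1.10 to -0.70) and -0.95 (95% interval -1.17 to -0.74). Sod1 was at 67.4 and 51.6 CPM, with -0.67 (95% interval -1.09 to -0.28) and -1.08 (95% interval -1.55 to -0.64). Gclc had 3 and 5 UMIs in the gate and fell under the 10 CPM needed for a call. At day +7, 5 of the 9 genes compared were higher and 2 lower, against 23.2% and 40.4% of 6559 genes. At day +14, 3 of 9 were higher and 3 lower, the latter with Txnrd1 at -0.56, against 19.7% and 39.1% of 7182 genes. The median gene lay at -0.29 and -0.30, so some of these calls depend on the scale. Relative to it, Gpx4 (1.19 and 0.78) and Txn1 (0.83 and 0.61) passed 0.5 at both days. Prdx1 (-0.61 and -0.65) stayed lower at both days and Sod1 (-0.38 and -0.78) only at day +14. Txnrd1 at day +14 (-0.26) lay inside the threshold on that scale.

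Some droplets of this gate held T cell transcripts. In the 35 and 52 droplets of the gate with under 3 T cell UMIs, Gsr was at 393 and 612 CPM and Gpx1 at 1382 and 1010.0 CPM, above the values of the whole gate. Prdx1 was at 181 and 100.2 CPM and Sod1 at 55.4 and 18.5 CPM, below them. Between the days, 1 of the 9 genes in the neutrophil gate, Gclm, was lower (log2 ratio -0.68, 95% interval -1.19 to -0.19) and none was higher, against 8.97% lower and 30.0% higher of 6496 genes. Gpx1 (-0.40), Txn1 (-0.34), Sod1 (-0.38) and Gsr (0.38) stayed inside the threshold. The gate rests on 42 and 77 cells, and its median depth was 13963 UMIs at day +7 and 7430 at day +14.

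Erythroid precursors carry iron and oxygen and are known for high catalase, peroxiredoxin and glutathione peroxidase. In the erythroid gate at day +7, 7 of 10 genes were higher than in non-cycling CD8 T cells and none was lower, against 39.1% and 25.3% of 6851 genes. Gclm was at 351 CPM, 13.3 times the level in non-cycling CD8 T cells, and Gclc at 40.2 CPM, 3.95 times that level. Gpx1 (811 CPM), Gpx4 (629.5 CPM), Sod2 (169.6 CPM) and Sod1 (244 CPM) had log2 ratios of 2.87, 1.92, 1.34 and 1.18. Gsr was less apart, at 0.62 (95% interval 0.40 to 0.85).

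The members Txn1 (1032 CPM), Prdx1 (458 CPM) and Txnrd1 (56.2 CPM) did not share the difference, each within 0.5 of non-cycling CD8 T cells on the log2 scale. The 15 cells of the gate at day +14 gave 357 CPM (95% interval 265 to 471) of Gclm, 1178 CPM (95% interval 1005.5 to 1373) of Gpx1 and 643 CPM (95% interval 517 to 790.1) of Gpx4, and only levels are given for them. Hbb-bs, a beta-globin gene, was at 90.7 CPM in the gate at day +7 and 7371 CPM at day +14, so the gate differed between the days in it. Among the 76 droplets with under 3 T cell UMIs at day +7, Gclm was at 440.2 CPM and Gpx1 at 1001 CPM.

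The 10 genes were set beside 10 wider lists of redox and NADPH genes, 161 genes in all, of which some belong to more than 1 list and some are members. In non-cycling CD8 T cells 87 of the 161 reached 10 CPM, and 9 were higher and 3 lower at day +14, against 22.6% higher and 4.27% lower of all genes. Of the 9, Mthfd1l, Tfrc and Sephs1 were under 10 CPM at day +7 and were counted through their day +14 level. The glutathione list had 13 genes at that level, with none higher and 1 lower, Ggt1, the ectoenzyme that breaks down extracellular glutathione (83.8 against 11.4 CPM at days +7 and +14, log2 ratio -2.87, 95% interval -3.12 to -2.63). Its median was -0.05, against 0.20 for all genes, and its other named genes were Glrx, a glutaredoxin, at -0.16, and the members Gclc and Gsr. Of the glutathione transferases 4 reached the level, and 3 were higher: Mgst2, a membrane-bound transferase (17.2 against 38.9 CPM, 1.18, 95% interval 0.97 to 1.39), Gstp3 (0.73) and Gsto1 (0.66). The fourth, Gstt2, was at -0.21. Gstp3 has near-identical neighbours in its family, so its counts are uncertain. Ggt1 was lower at day +14 in the other T cell gates too, at 95.5 against 18.8 CPM in cycling CD8, 82.6 against 8.22 CPM in CD4 and 42.1 against 12.2 CPM in Foxp3+ cells. Mgst2 was higher in each of them, at 7.81 against 30.5 CPM, 4.07 against 26.7 CPM and 14.6 against 36.7 CPM in the same order.

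In the thioredoxin and peroxiredoxin list none of 22 genes was higher and 2 were lower, Txndc5 (94.4 against 38.7 CPM, -1.29, 95% interval -1.43 to -1.14) and Prdx4 (31.4 against 14.7 CPM, -1.10, 95% interval -1.34 to -0.86). Both act on disulfides in the endoplasmic reticulum, and Txndc11 (0.41) and Prdx2 (0.16) had the highest ratios of the list. Of the 6 peroxidases, catalase and superoxide dismutases none passed in either direction, with Ccs, the copper chaperone of Sod1, at -0.07 and catalase (Cat) at 0.07. Of the 6 genes in the list of NADPH makers 1 was higher, Mthfd1l of the mitochondrial folate pathway (9.98 against 22.7 CPM, 1.19, 95% interval 0.91 to 1.47). The enzyme of Mthfd1l makes formate and no NADPH itself, and the gene stays in the counts of this list below. Mthfd2 was at 0.32, Me2 at -0.09 and G6pdx, the first enzyme of the pentose phosphate pathway, at -0.07.

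Among 6 NADPH oxidase genes 1 was higher, Ncf1, the organizer subunit (18.1 against 52.9 CPM, 1.54, 95% interval 1.35 to 1.74), and Cyba, Rac2 and Rac1 were at -0.33, -0.28 and 0.28. Of 5 NRF2 regulators none passed, with Nfe2l2, which encodes NRF2, at -0.22, Mafg at 0.12, Cul3 at 0.23 and Nfe2l1 just inside the threshold. None of 8 NRF2 targets outside the members passed, with Taldo1 at -0.32, Ftl1 at -0.17, Akr1a1 at 0.19 and Pgd, the enzyme 6PGD, at 0.32. Of 18 selenoprotein genes 2 were higher, Sephs1 (0.71) and Selenoi (0.55), and Msrb1 (-0.29) and Selenow (-0.24) were the lowest. Of 6 ferroptosis genes 2 were higher, Gch1, which makes tetrahydrobiopterin (13.6 against 25.9 CPM, 0.93, 95% interval 0.69 to 1.18), and Tfrc, the transferrin receptor (0.90), with Tfrc and Gch1 past the threshold in cycling CD8, CD4 and Foxp3+ cells as well, while Por (0.20) and Lpcat3 (-0.02) were the lowest.

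In the neutrophil gate the lists are a description, since a gene under 10 CPM in non-cycling CD8 T cells was counted only through the gate where it is high, as were Idh1, Idh2, Mthfd1l and Cybb. Of all genes, 23.2% were higher and 40.4% lower there at day +7. At that day 7 of 8 NADPH makers were higher there than in non-cycling CD8 T cells and none was lower, with a median log2 ratio of 2.01 against -0.29 for all genes, led by G6pdx (3.61, 95% interval 3.32 to 3.90) and Pgd (2.95, 95% interval 2.72 to 3.18). Of 8 NADPH oxidase genes 5 were higher and 1 lower, among the former Cybb (8.31, 95% interval 7.89 to 8.75), the catalytic subunit. In the thioredoxin and peroxiredoxin list 6 of 22 were higher, led by Msrb1 (3.27) and Prdx5 (2.91), and 11 were lower. The glutathione list had 3 of 12 higher and 7 lower, the peroxidase list 2 of 6 and 3, and the NRF2 regulators 3 of 6 and none, led by Mafg (2.76) and Nfe2l2 (1.80).

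Of the other lists, Gstm1 among the NRF2 targets had a log2 ratio of 6.23, and it too was under 10 CPM in the CD8 gate. Mgst1 had 3 UMIs in the CD8 gate, which leaves its log2 ratio between 8.95 and 12.80. The leukotriene genes Alox5ap (5 UMIs there) and Alox5 (1 UMI there) had intervals of 10.61 to 13.46 and 7.77 to 15.63. The neutrophil gate was drawn on other genes of granulocytes, so these levels describe the gate.

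In cycling against non-cycling CD8 T cells at day +7 the NADPH makers were again the list with the highest median, 0.42, with 3 of 7 higher (Mthfd1, Mthfd1l and Mthfd2) against 17.9% of all genes, and Mthfd1 and Mthfd1l were under 10 CPM in the non-cycling gate. At day +14 it was 0.58, with 4 of 7 higher against 17.1% of all genes. Txnip, the inhibitor of thioredoxin, was lower in cycling cells at both days, at -1.18 and -1.14, and was named after its values had been seen. In the erythroid gate at day +7, 10 of 15 glutathione genes, 8 of 9 NADPH makers and 10 of 12 NRF2 targets were higher than in non-cycling CD8 T cells, and 5 of 6 NADPH oxidase genes were lower, against 39.1% higher and 25.3% lower of all genes. Of 23 thioredoxin and peroxiredoxin genes 9 were higher, Prdx2 among them, and 4 lower, near those shares. Of 6 peroxidase, catalase and superoxide dismutase genes 5 were higher (Gpx1, Gpx4, Sod2, Sod1 and Ccs) and none was lower. Catalase (Cat) was not among these 5. Some genes higher in the erythroid gate, such as Idh2, Gss and Blvrb, were under 10 CPM in the CD8 gate, so these counts too are a description.

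**Figure D5:**
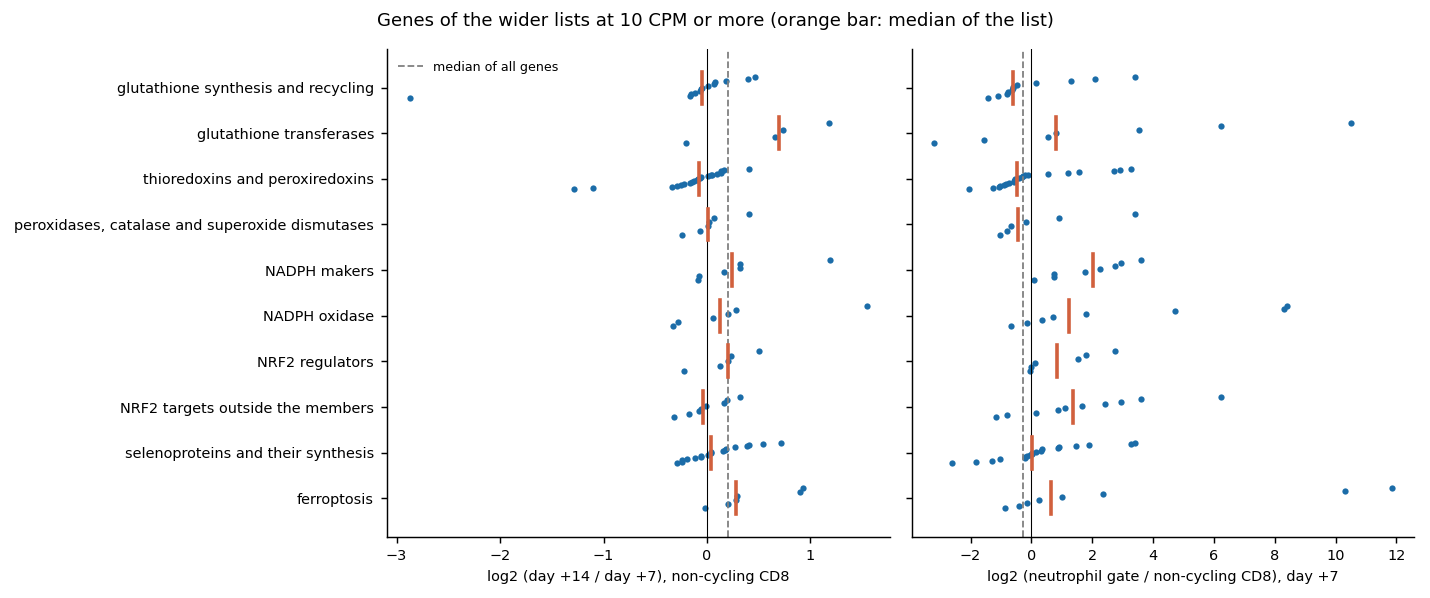
Log2 ratio (x axis) of each gene at 10 CPM or more in the 10 wider lists, for day +14 over day +7 in non-cycling CD8 T cells (left) and for the neutrophil gate over non-cycling CD8 T cells at day +7 (right); points are genes, orange bars list medians and the dashed line the median of all genes. On the left most lists lie near the dashed line and Ggt1 stands alone at -2.87; on the right the NADPH makers have the highest median, 2.01.

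For each member the gene most alike in pattern over the 12 sums of 6 gates and 2 days was sought among 2538 genes, by Pearson's r of log2(CPM + 1). The 12 sums come from 2 libraries, so r is a description. Gsr was closest to Lta4h (r = 0.988) and Gpx1 to Tnfaip2 (r = 0.985). Tnfaip2 was nearly absent from the T cell gates (0.296 to 1.88 CPM). In the neutrophil and erythroid gates it was at 120 to 183 CPM, so its r describes the difference between those gates and T cells. Gclc was closest to Wdr61 (r = 0.961), Gclm to Ankrd13a (r = 0.957) and Gpx4 to Ddb1 (r = 0.946). Prdx1 was closest to Bzw1 (r = 0.981), Sod1 to Cfdp1 (r = 0.987) and Sod2 to Psma5 (r = 0.974). Txn1 and Txnrd1 had their highest r at lower values, with Kdelr2 (r = 0.837) and Hikeshi (r = 0.867).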

How the data were processed

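Whole-number UMI counts per gene and barcode were deposited by the authors, 1 matrix per library, made with Cell Ranger 6.1.2 on mm10 per the submitters' processing notes. The labels assign 1 library to each day. The count files hold no normalised values.

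Barcodes with 500 to 7500 genes and at most 15% mitochondrial UMIs were kept (7179 of 7355 and 7794 of 8043). Scrublet, run through scanpy 1.11.5, marked 0 barcodes, so doublets stayed in. Gates used T cell genes (at least 3 UMIs), Cd4, Cd8a or Cd8b1, and Foxp3 (at least 1 UMI each), 12 cycling genes (0.05% of UMIs), 10 neutrophil genes (1% of UMIs and 10 UMIs), at least 3 of 6 erythroid genes, and C1qa, C1qb and C1qc (0.05% of UMIs and 3 UMIs). Droplets passing the last 3 rules were left out of the T cells. UMIs were summed per gate and scaled to CPM. Depth came to 86745047 UMIs at day +7 and 83808218 at day +14. Intervals (95%; scipy 1.17.1, pandas 2.3.3, numpy 2.4.6, Python 3.11.15) cover counting error only and were checked on simulated counts. No test was run, since each day is 1 library.

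The members and the wider lists were chosen with earlier results of these data known. From each list the 2 genes with the highest and the 2 with the lowest ratio between the days in non-cycling CD8 T cells were named, and the 2 highest in the neutrophil gate over those cells, together with 1 most alike gene per member. Of these, 1 gene is not reported here. The bins of cycling share, the neutrophil limit of 0.3% and the droplets with under 3 T cell UMIs were chosen after seeing the data. Nnt, listed among the NADPH makers, was not analysed here. Other scalings, totals, cell weights, filters and gate limits were tried.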

Additional observations from a re-analysis of the deposited data

Results flagged for a closer look

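Txn1 lay on opposite sides of its day +7 level in different T cell gates. The log2 ratio of day +14 over day +7 was -0.12 in non-cycling CD8 T cells, 0.054 in cycling CD8 T cells, 0.22 in CD4 T cells and 0.14 in Foxp3+ cells. It drew attention because the gates differ in direction, and the difference between them was not tested, since each day is 1 library. Against the median gene, which was itself higher at day +14, the ratio was above 0 in CD4 T cells, at 0.05, and below 0 in the other 3 gates.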

How the results depend on the processing

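Of 224 counts of genes past the threshold, recomputed under 16 other settings, 194 stayed within 1.5 times the reported count and 30 moved. Of 1100 single ratios under 15 settings, 901 moved by less than their interval and 199 by more. The cause of each move was not tested. With median-ratio scaling, 2 of the 10 genes were lower in all kept cells between the days, 0 were higher and 1 lower in cycling CD8 T cells, 2 were higher in cycling over non-cycling cells at day +14, 1 was lower in the neutrophil gate over non-cycling CD8 T cells at day +7 and 5 were higher at day +14, and 7 genes of the wider lists were lower. With mitochondrial, ribosomal protein and histone genes left out of the total, 5 were lower in the neutrophil gate over CD8 T cells at day +14. With the mean of per-cell CPM, 0 were lower in all kept cells, 2 were higher in CD4 T cells, 3 were lower in the neutrophil gate between the days and 2 were higher in cycling cells at day +14. With cells thinned to 4000 UMIs, 1 was higher and 0 lower in all kept cells, 3 were higher in CD4 and 2 in Foxp3+ cells, 1 was higher and 5 lower in the neutrophil gate between the days, and 2 were higher in cycling cells at day +14. A cycling limit of 0.1% gave 1 higher in non-cycling CD8 T cells between the days and 0 in cycling over non-cycling cells at day +14, where a limit of 0.025% gave 3. A neutrophil limit of 3% gave 5 lower in that gate between the days. A limit of 0.3%, chosen after seeing the data, gave 1 higher and 0 lower there, and 0 lower in the gate over CD8 T cells at day +7. Droplets of the gate with under 3 T cell UMIs, also chosen after seeing the data, gave 1 higher and 3 lower between the days. With a mean of at least 1 CPM, 28 genes of the wider lists were higher and 7 lower. No paired analysis was possible because each day is 1 library, and for the same reason no replicate could be left out. Gclc rested on few counts in small gates, 3 and 5 UMIs in the neutrophil gate and 23 and 21 in Foxp3+ cells.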
